A study of Mus musculus with 6 samples.

Results

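The genes described here are 10 imprinted genes with known roles in growth: the non-coding RNAs H19 and Meg3, and the protein-coding genes Dlk1, Peg3, Mest, Grb10, Plagl1, Nnat, Peg10 and Ndn. They were taken by symbol from the 53801 Ensembl genes counted in each library, and each symbol matched 1 identifier. The libraries were made from poly-A RNA of cells labelled as the MC3T3-E1 line, pre-osteoblasts that were derived from mouse calvaria. In 3 scramble libraries the cells carried a lentivirus with a scrambled non-silencing shRNA, and in 3 Hdac4-shRNA libraries they carried one with an shRNA against Hdac4, which is Hdac4-shRNA3 in the study's account of the sequencing. Both groups had been selected with 5 μg/ml puromycin for 7 days. Each group rests on a single shRNA in a single cell line. The labels speak of 3 independent RNA samples per group, taken from each stable line, and of no separate infections, so the spread between libraries may be technical. The study itself calls them 3 biological replicates. The deposited labels call the groups Control and Hdac4-knockdown.

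Most genes are read from both parental copies, whereas an imprinted gene is read mainly from the copy inherited from one parent. DNA methylation that is laid down in the egg or the sperm marks the silent or active copy, and DNMT1, UHRF1, ZFP57 and TRIM28 are known to keep this mark through cell division. Many imprinted genes act on fetal growth: several genes read from the paternal copy promote it, and several read from the maternal copy restrain it. The paternal copy is the active one for Dlk1, Peg3, Mest, Plagl1, Nnat, Peg10 and Ndn, and the maternal copy for H19, Meg3 and, outside the brain, Grb10. The counts do not separate the parental copies, so all values below are totals for a gene.

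The sequences below come from annotated start sites and loci of these genes. Which start sites are used in these cells was not measured. All sequences are from RefSeq on GRCm38.p6. The first is the stretch of 163 bases between the start sites of Peg3 and Usp29, which are read in opposite directions, shown on the strand of Peg3 (chr7:6730420-6730582, minus strand). It is printed because both genes fell, as described below. The second set holds the 250 bases before the start sites of Plagl1 (chr10:13090582-13090831, plus strand) and Grb10 (chr11:12037421-12037670, minus strand, the more CpG-rich of its start sites), the genes with the largest rise. Capitals mark CpG, the base pair step that DNA methylation acts on.
Peg3-Usp29: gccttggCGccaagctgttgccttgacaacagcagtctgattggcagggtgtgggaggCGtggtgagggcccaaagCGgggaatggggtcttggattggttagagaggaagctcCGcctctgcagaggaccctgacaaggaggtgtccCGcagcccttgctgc
Plagl1: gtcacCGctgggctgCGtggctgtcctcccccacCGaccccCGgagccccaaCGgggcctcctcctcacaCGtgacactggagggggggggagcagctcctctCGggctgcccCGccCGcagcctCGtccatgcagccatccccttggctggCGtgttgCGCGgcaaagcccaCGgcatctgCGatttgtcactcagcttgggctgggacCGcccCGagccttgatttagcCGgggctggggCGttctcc
Grb10: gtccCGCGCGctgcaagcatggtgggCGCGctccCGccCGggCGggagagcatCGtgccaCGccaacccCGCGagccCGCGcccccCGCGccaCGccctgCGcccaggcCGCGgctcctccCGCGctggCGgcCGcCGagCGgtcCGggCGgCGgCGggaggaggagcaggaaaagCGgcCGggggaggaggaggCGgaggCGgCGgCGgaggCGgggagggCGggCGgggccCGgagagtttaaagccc

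The stretch of 163 bases between Peg3 and Usp29 held 5 CpG. Over the 250 bases before each start site, Peg3 held 8 and Usp29 held 14. The 250 bases before Plagl1 held 19 CpG, and those before Grb10 held 40 at the start shown and 8 at its other start. The median was 6 over 32851 mouse promoters. Of all promoters, 57% held fewer CpG than that of Peg3 and 70.6% fewer than that of Usp29. For Plagl1 this share was 80.3%, and for the start of Grb10 shown it was 98.7%. The letters TGCCGC, the core of the ZFP57 motif, were searched on both strands of the same 250 bases. They were found before Plagl1, before 1 start of Meg3 and before 2 starts of Mest whose windows overlap. In all, 4 of 12 start sites listed for 8 of the 10 genes held them, against 8.68% of all promoters. They were not found in these windows for Peg3, Grb10, Nnat, Dlk1 or Ndn. H19 and Peg10 were not matched in the promoter table.

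The third set holds the mature microRNAs of Mir675, whose hairpin lies inside H19, and of Mir335, which lies within the span of Mest. They are shown because the RNA of each host was counted here, whereas mature microRNAs were not measured. Capitals mark the seed, bases 2 to 8. No seed is shared among the 4.
mmu-miR-675-5p: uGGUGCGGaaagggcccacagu
mmu-miR-675-3p: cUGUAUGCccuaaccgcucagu
mmu-miR-335-5p: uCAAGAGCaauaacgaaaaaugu
mmu-miR-335-3p: uUUUUCAUuauugcuccugacc

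Reads on genes numbered 29096544 to 31651826 per library. Genes with at least 1 count numbered 19373 to 19797 in scramble and 22148 to 22640 in Hdac4-shRNA libraries. Hdac4, the target, was counted 1243, 1204 and 1136 times in scramble and 950, 927 and 887 times in Hdac4-shRNA libraries (log2 fold change -0.44, SE 0.057, adjusted p = 8.98e-07 by the edgeR quasi-likelihood test), and 22.4% of its exon bases are shared with Gm26720. Of all 14531 genes tested, 75.1% passed the thresholds of adjusted p below 0.05 and log2 fold change beyond 0.05, so a call by itself sets few genes apart. Marker genes did not follow the cell label evenly. Alpl, an early osteoblast marker, had 0 to 3 counts in every library. The 5 myogenic markers (Myod1, Myog, Myf5, Pax7 and Des) all fell, with summed levels of 828.5 to 867.5 CPM (counts scaled to 1e+06 per library) in scramble and 111.5 to 126.5 CPM in Hdac4-shRNA libraries. Of 8 osteoblast markers, 5 were tested, of which 4 rose and Spp1 fell, with summed levels of 3550 to 3584 CPM in scramble and 12920 to 13530 CPM in Hdac4-shRNA libraries. The rise of this sum was that of Col1a1 (338 ± 14.4 to 11010 ± 326 CPM, SD, n = 3 each), while Spp1 went from 3154 ± 30.9 to 2046 ± 36.1 CPM. At far lower levels, Sp7 (log2 fold change 4.18, SE 0.373) and Dmp1 (2.55, SE 0.0985) also rose. Runx2 passed the thresholds (log2 fold change 0.19, edgeR adjusted p = 0.00719), although its groups overlapped. Endothelial markers summed to 0.262 to 0.421 CPM in scramble and 2.81 to 3.16 CPM in Hdac4-shRNA libraries, and of these Pecam1 rose (log2 fold change 3.45, SE 0.308). Macrophage markers summed to 1.60 to 2.58 and 2.69 to 3.13 CPM, with a rise of Csf1r (2.20, SE 0.447) and no count of Adgre1, and epithelial markers to 0.491 to 0.969 and 0.565 to 0.905 CPM. Adipocyte markers summed to 27.3 to 29.6 CPM in scramble and 3.07 to 4.52 CPM in Hdac4-shRNA libraries, and neural markers to 193.6 to 200.4 and 83.8 to 92.2 CPM. The adipocyte sum was mostly Pparg (28.45 to 3.40 CPM), whereas Adipoq, Plin1 and Fabp4 (0.188 and 0.299 CPM) were too low to test. The neural sum was that of Tubb3 (log2 fold change -1.10) and Map2 (-1.49), with Rbfox3 too low to test and no count of Sox10. In bulk RNA, fewer cells of a type and less RNA per cell cannot be told apart. Marker levels thus differed between the groups, and a difference in the make-up or identity of the cells cannot be told apart from the shRNA in these 6 libraries. The part of these markers in the changes below was not tested.

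Of the 10 imprinted genes, 7 had enough counts to be tested. H19, Peg3 and Peg10 fell, Plagl1, Grb10, Mest and Nnat rose, and Meg3, Dlk1 and Ndn were too low to test. All 7 tested genes passed the thresholds, against 75.1% of all genes tested, of which 38% rose and 37.1% fell. A log2 fold change beyond 1 was reached by 5 of the 7 (3 that rose and 2 that fell), against 27.1% of all genes (16.5% that rose and 10.6% that fell). Leaving sign aside, the median log2 fold change was 2.88 over the 7 genes and 0.46 over all genes. The genes were chosen with earlier results of these data known, so these shares describe the set and are no test of it. The 7 counted here are those that passed a filter on low counts, and Grb10, Mest and Nnat passed with few counts in scramble libraries. For each of the 7, the libraries of the groups did not overlap, as for 76.8% of all genes. Two-sided exact permutation tests of single genes gave p = 0.1 for each of the 7, the smallest p that 3 libraries against 3 allow, and the calls therefore come from the fit over all genes.

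**Figure D1:**
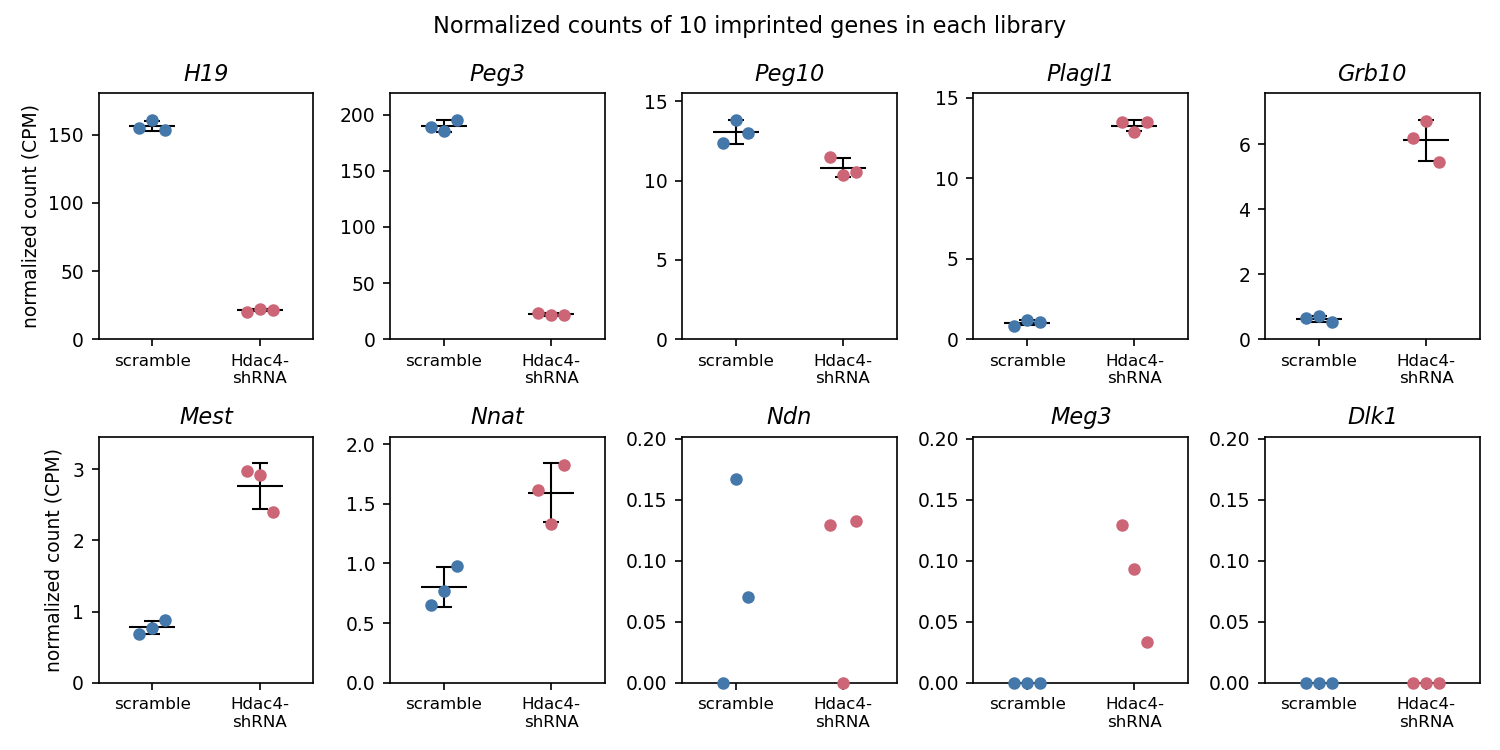
Normalized counts (CPM, vertical axis from 0, a separate scale for each gene) of the 10 imprinted genes in 3 scramble (blue) and 3 Hdac4-shRNA libraries (red), each point 1 library. Black bars give mean and SD of 3 libraries for the 7 genes tested, whose groups do not overlap, whereas Ndn, Meg3 and Dlk1 stayed at or below 0.167 CPM in every library.

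H19 (ENSMUSG00000000031; chromosome 7, 142575529 to 142578143, minus strand) is a non-coding RNA of the maternal copy, restrains growth in the embryo and lies beside Igf2. It was counted 4742, 4817 and 4382 times in scramble and 628, 708 and 650 times in Hdac4-shRNA libraries. Every Hdac4-shRNA library lay far below every scramble library. Normalized levels averaged 157 ± 3.81 CPM in scramble and, 7.36-fold lower, 21.3 ± 0.878 CPM in Hdac4-shRNA libraries (SD, n = 3 each). The log2 fold change was -2.88 (SE 0.0512, 95% interval -2.99 to -2.77, adjusted p = 3.66e-20). Of all genes tested, 1.97% fell further. The exons of H19 overlap small RNA annotations, the Mir675 hairpin shown above among them, over 9.15% of their length.

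Peg3 (ENSMUSG00000002265; chromosome 7, 6703892 to 6730431, minus strand) encodes a large zinc finger protein and is read from the paternal copy. Its counts were 5782, 5550 and 5570 in scramble and 725, 691 and 642 in Hdac4-shRNA libraries. Here too every Hdac4-shRNA library lay far below every scramble library. The level fell from 190 ± 5.05 to 22.1 ± 1.18 CPM (SD, n = 3 each), 8.61-fold, that is -3.11 on the log2 scale (SE 0.0519, 95% interval -3.21 to -3.00, adjusted p = 1.38e-20). Of all genes tested, 1.57% fell further, and no exon base of Peg3 is shared with another gene.

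H19 and Peg3 together made up 95.2% to 95.8% of the CPM of the 10 genes in scramble libraries. In Hdac4-shRNA libraries they made up 54.8% to 55.9%. The summed level of the 10 genes was 359.6 to 365.7 CPM in scramble and 76.8 to 79.8 CPM in Hdac4-shRNA libraries, so the sum mostly follows this pair. Both genes moved in the same direction as the myogenic markers, of which Myod1 had a log2 fold change of -2.92 (SE 0.0728) and Des one of -2.86 (SE 0.0516). Pparg (-3.07), Map2 (-1.49), Tubb3 (-1.10) and Spp1 (-0.62) also fell, as did 37.1% of all genes tested, while other markers rose, Col1a1 among them. A link between these changes was not tested.

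Peg10 (ENSMUSG00000092035; chromosome 6, 4747306 to 4760517, plus strand), a gene derived from a retrotransposon that is needed in the placenta, differed little. It was counted 377, 414 and 371 times in scramble and 356, 334 and 318 times in Hdac4-shRNA libraries. After normalization, 13.1 ± 0.748 CPM in scramble and 10.8 ± 0.61 CPM in Hdac4-shRNA libraries (SD, n = 3 each) did not overlap, by a small margin. The log2 fold change was -0.27 (SE 0.0894, 95% interval -0.46 to -0.09, adjusted p = 0.00996). With upper quartile normalization, which moved the median of all genes by 0.089, the log2 fold change was -0.18 and the call was lost (adjusted p = 0.0704).

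Plagl1 (ENSMUSG00000019817; chromosome 10, 13060504 to 13131694, plus strand) encodes ZAC1, a zinc finger transcription factor that arrests the cell cycle when overexpressed. Its counts were 26, 36 and 30 in scramble and 417, 414 and 405 in Hdac4-shRNA libraries. Low in all scramble libraries, it was nearly the same in the 3 Hdac4-shRNA libraries. The level rose 12.8-fold, from 1.03 ± 0.177 to 13.3 ± 0.358 CPM (SD, n = 3 each), that is 3.68 on the log2 scale (SE 0.143, 95% interval 3.37 to 3.98, adjusted p = 8.88e-15). Of all genes tested, 3.3% rose further.

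Grb10 (ENSMUSG00000020176; chromosome 11, 11930508 to 12038683, minus strand) encodes an adaptor protein that binds the insulin and IGF1 receptors and restrains their signal. It was counted 20, 21 and 15 times in scramble and 192, 216 and 164 times in Hdac4-shRNA libraries. Its level rose 9.75-fold, from 0.627 ± 0.0907 to 6.12 ± 0.632 CPM (SD, n = 3 each). The log2 fold change was 3.27 (SE 0.199, 95% interval 2.86 to 3.69, adjusted p = 1.15e-11), and 4.19% of all genes tested rose further. Grb10 and Plagl1 are thus the pair of the set that rose most, with few reads behind their scramble levels.

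Mest (ENSMUSG00000051855; chromosome 6, 30723547 to 30748465, plus strand) encodes an enzyme-like protein of the alpha/beta hydrolase fold and is known to be high in growing mesoderm. The counts were 21, 23 and 25 in scramble and 92, 94 and 72 in Hdac4-shRNA libraries, without overlap. The level rose 3.55-fold, from 0.778 ± 0.0953 to 2.76 ± 0.321 CPM (SD, n = 3 each), that is 1.83 on the log2 scale (SE 0.237, 95% interval 1.33 to 2.32, adjusted p = 9.56e-07). Copg2, read in the opposite direction, shares 23.1% of the exon bases of Mest, and the libraries carry no strand. The counts of Copg2, 1479 to 1602 in scramble and 1648 to 1820 in Hdac4-shRNA libraries, gave a log2 fold change of 0.08 that did not pass (SE 0.0492, adjusted p = 0.145).

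Nnat (ENSMUSG00000067786; chromosome 2, 157560078 to 157562522, plus strand) encodes neuronatin, a small membrane protein known from the developing brain. Its counts were 20, 23 and 28 in scramble and 50, 43 and 55 in Hdac4-shRNA libraries. All 3 Hdac4-shRNA libraries lay above the scramble libraries, with fewer reads over the 6 libraries than for any other of the 7 genes tested. The level was 0.802 ± 0.166 CPM in scramble and 1.59 ± 0.247 CPM in Hdac4-shRNA libraries (SD, n = 3 each). The log2 fold change was 0.99 (SE 0.275, 95% interval 0.41 to 1.56, adjusted p = 0.0032), and 16.7% of all genes rose further.

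**Figure D2:**
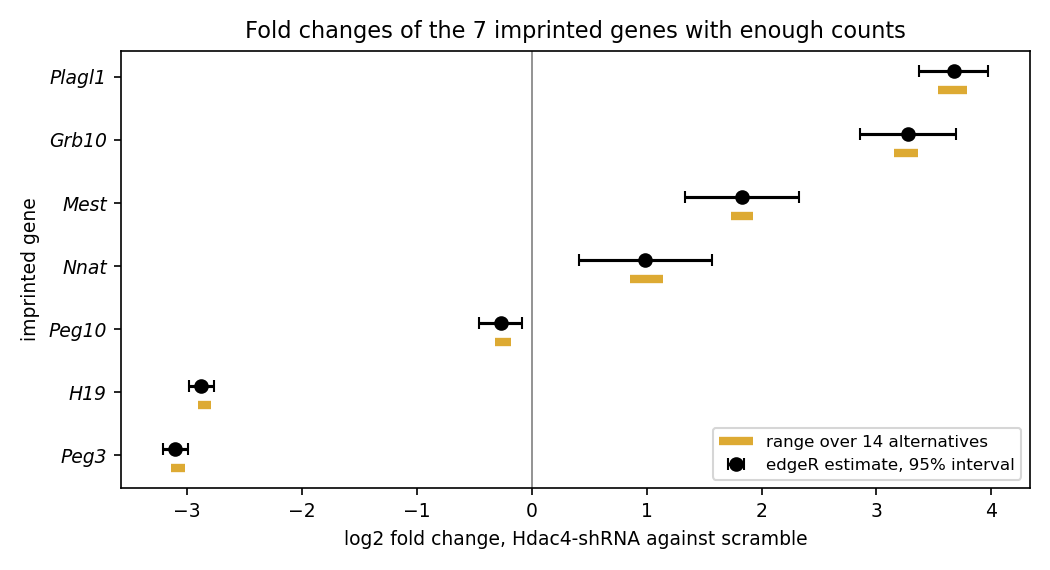
Log2 fold change of the 7 tested imprinted genes (horizontal axis, Hdac4-shRNA against scramble), with the edgeR estimate and its 95% interval in black and the range of estimates over 14 other normalizations, filters, tests, designs and sets of libraries in yellow. H19 and Peg3 lie near -3, Peg10 just below 0, and Nnat, Mest, Grb10 and Plagl1 between 0.99 and 3.68.

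Dlk1 (ENSMUSG00000040856; chromosome 12, 109452823 to 109463336, plus strand) encodes a transmembrane protein with EGF-like repeats that holds back the differentiation of adipocyte precursors. It had no count in any of the 6 libraries. At these depths a count of 0 allows up to 3 counts, or 0.0931 to 0.105 CPM, in a library, by counting error only. Meg3 (ENSMUSG00000021268), the non-coding RNA of the maternal copy in the same cluster, had 0 counts in each scramble library and 4, 3 and 1 counts in the Hdac4-shRNA libraries. Ndn (ENSMUSG00000033585; chromosome 7, 62346569 to 62350262, plus strand) encodes necdin, which binds E2F1 and restrains proliferation in neurons. Its counts were 0, 5 and 2 in scramble and 4, 0 and 4 in Hdac4-shRNA libraries and overlapped. For Meg3 the groups did not overlap (two-sided exact permutation p = 0.1), and in an edgeR fit without the filter it did not pass (adjusted p = 0.0622). With so few counts a change of Meg3 could not be called, and no difference was detectable at this depth for Dlk1 and Ndn.

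To compare the genes with each other, CPM was divided by the length of all annotated exons in kilobases (kb). In scramble libraries H19 was highest at 63.7 ± 1.55 CPM per kb (SD, n = 3), above Peg3 at 14.3 ± 0.379 and Peg10 at 1.96 ± 0.112. Below them came Nnat at 0.438 ± 0.091, Mest at 0.197 ± 0.0242, Plagl1 at 0.132 ± 0.0226 and Grb10 at 0.069 ± 0.00998 CPM per kb. Down to Grb10, no gene overlapped the next in this order. A two-sided exact permutation test gave p = 0.1 for each step, the smallest that 3 against 3 allow. It treats the values as coming from separate libraries, although both genes of a step were measured in the same 3, so the order is a description only.

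In Hdac4-shRNA libraries the levels of the same genes lay closer together. H19 was still highest at 8.65 ± 0.357 CPM per kb (SD, n = 3). Plagl1 at 1.70 ± 0.0458, Peg3 at 1.66 ± 0.0888 and Peg10 at 1.62 ± 0.0914 CPM per kb followed, and each of these overlapped the next. Nnat at 0.871 ± 0.135, Mest at 0.7 ± 0.0813 and Grb10 at 0.673 ± 0.0695 CPM per kb also overlapped in turn. Plagl1, the sixth in scramble libraries, thus overlapped Peg3 in level. Without division by length, Peg3 had a higher CPM than H19 in both groups, and Plagl1 was the fourth in scramble and the third in Hdac4-shRNA libraries.

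**Figure D3:**
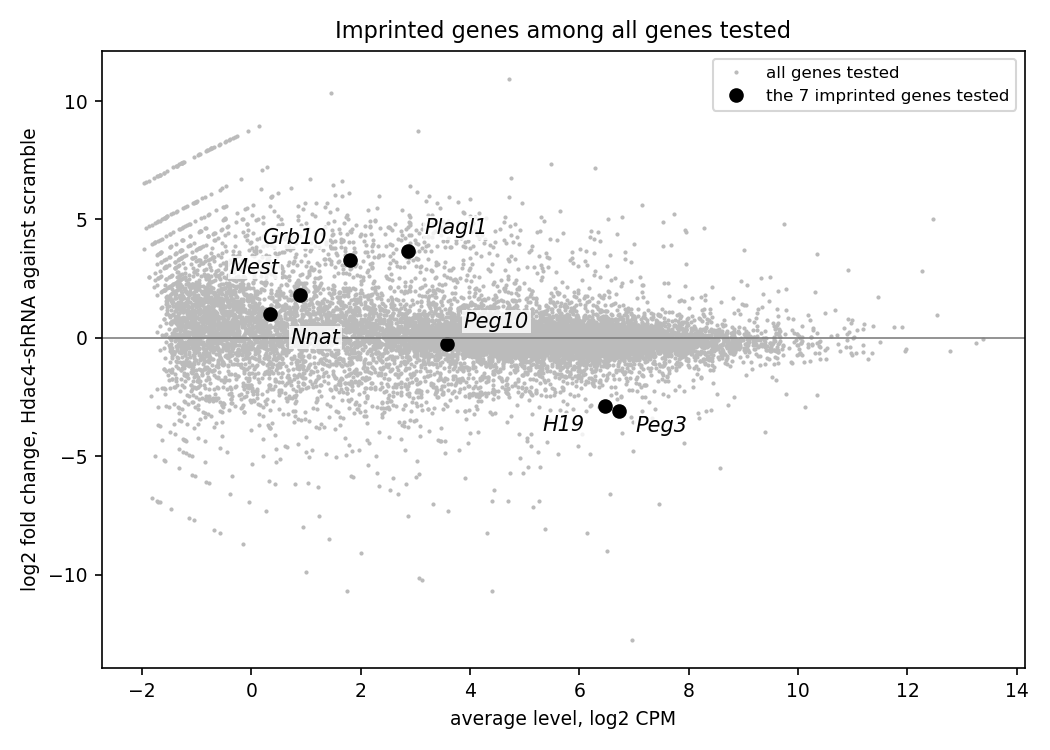
Average level (log2 CPM, horizontal axis) and log2 fold change (Hdac4-shRNA against scramble, vertical axis) of the 14531 genes tested in grey, with the 7 imprinted genes tested in black. H19 and Peg3 lie among the well-expressed genes in the lower part of the cloud, whereas Grb10, Mest and Nnat lie among weakly expressed genes above 0.

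The genes nearest in pattern were found by the distance between the 6 log2 CPM values of each gene, centred on their mean, over 14530 other genes. Nearest to Plagl1 were Def6 (distance 0.14), Fbln5 (0.196) and Nxpe4 (0.209), with log2 fold changes from 3.63 to 3.87. Nearest to Peg3 were Ston2 (0.124), Syt13 (0.152) and Gm13394 (0.161), with log2 fold changes from -3.08 to -3.04. Within a distance of 1 there were 301 genes for Plagl1 and 244 for Peg3.

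Imprinted genes often lie in clusters, and the other genes listed for each cluster were examined next. Whether the genes of a listed cluster share a control region was not tested. In the Peg3 cluster both other genes fell, as did 37.1% of all genes tested. Usp29, read from the paternal copy in the direction opposite to Peg3 across the stretch shown above, was counted 101, 99 and 117 times in scramble and 12, 10 and 9 times in Hdac4-shRNA libraries. Its log2 fold change was -3.41 (SE 0.264, adjusted p = 5.03e-10). Zim1, read from the maternal copy, was counted 488, 365 and 401 times in scramble and 104, 64 and 61 times in Hdac4-shRNA libraries, a change of -2.52 on the log2 scale (SE 0.16, adjusted p = 2.28e-11). The level of Usp29 was 1.75% to 2.1% of that of Peg3 in scramble and 1.4% to 1.66% in Hdac4-shRNA libraries. Usp29 shares 14.8% of its exon bases with Zim3 and a small RNA annotation.

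In the listed cluster of H19, which joins the H19-Igf2 and Kcnq1 regions, directions were mixed. The 8 tested genes other than H19 all lie nearer to Kcnq1 than to H19. Igf2, a growth factor of the paternal copy, had 1 count over the 6 libraries, though 64.5% of its exon bases are shared with other annotations, where reads could be set aside as ambiguous. Cdkn1c, a cyclin-dependent kinase inhibitor of the maternal copy, had at most 2 counts in a library, and Phlda2 at most 1. Kcnq1ot1, the non-coding RNA of the paternal copy that silences part of this cluster, had counts of 52, 30 and 33 in scramble and 379, 232 and 307 in Hdac4-shRNA libraries. Its log2 fold change was 2.93 (SE 0.211, adjusted p = 1.60e-10), opposite in sign to that of H19. Of 8 tested genes in this cluster, 3 rose (Kcnq1ot1, Slc22a18 and Osbpl5), 3 fell (Ano1, Tspan32 and Cd81), and Tssc4 and Dhcr7 did not pass. That is 75% called, the same as the share over all genes (75.1%).

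Around Peg10, 3 of 4 tested genes rose and 1 fell, where 75.1% of all genes were called. Sgce, which starts beside Peg10 and is also read from the paternal copy, had 779 to 875 counts in scramble and 941 to 989 in Hdac4-shRNA libraries (log2 fold change 0.14, SE 0.0637, adjusted p = 0.0484). Pon3, a lactonase gene, had a log2 fold change of 1.17 (SE 0.0673) and Pon2 one of -0.50 (SE 0.0549). Casd1 rose by 0.42 on the log2 scale (SE 0.0743). In the Prader-Willi cluster of Ndn, Snrpn was counted 36, 36 and 59 times in scramble and 3, 6 and 9 times in Hdac4-shRNA libraries (log2 fold change -2.91, SE 0.419, adjusted p = 3.69e-06), with 34.1% of its exon bases shared with Snurf and other annotations. Peg12 also fell (log2 fold change -1.09, SE 0.288), Atp10a rose (0.50, SE 0.0533), Mkrn3 (0.37, SE 0.334) and Ube3a (-0.06, SE 0.0798) did not pass, and Magel2 had no count.

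Of the other genes beside Grb10, Cobl rose (log2 fold change 0.30, SE 0.0703), whereas Ddc, which was too low to test, had 17, 10 and 16 counts in scramble and 8, 8 and 5 in Hdac4-shRNA libraries. Blcap, whose intron holds Nnat, rose by 0.41 on the log2 scale (SE 0.0505). In the Dlk1 cluster none of the 5 other genes was tested. Rian had 10, 0 and 4 counts and Mirg 0, 4 and 2 counts in Hdac4-shRNA libraries, both with 0 in every scramble library. Begain had at most 2 counts in scramble and 8, 17 and 7 in Hdac4-shRNA libraries, and Rtl1 had none. Such low counts are not particular to this cluster, since more genes of any kind had a count in Hdac4-shRNA libraries, as given above.

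**Figure D4:**
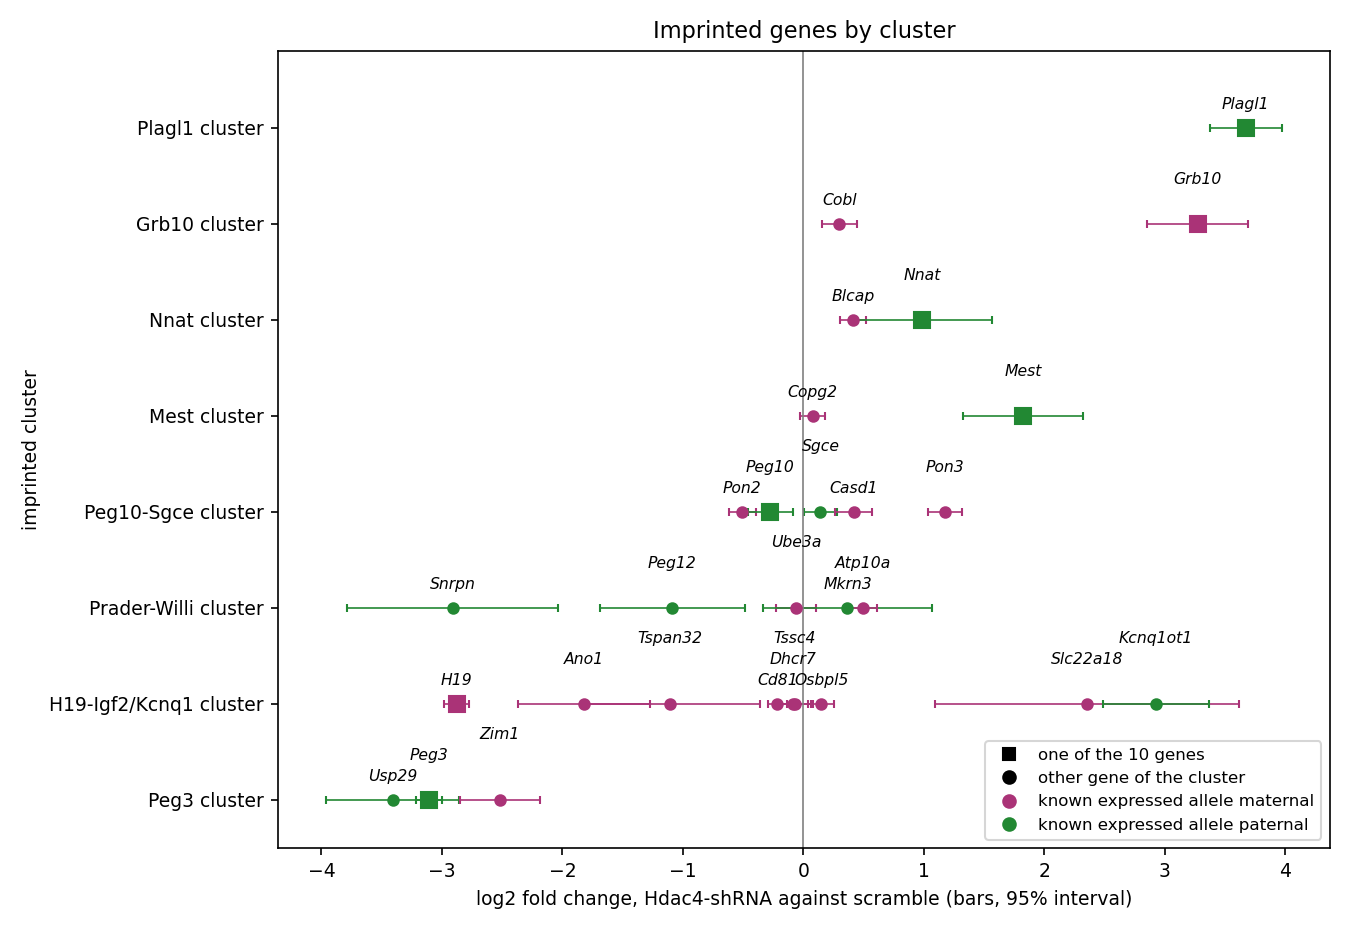
Log2 fold change (horizontal axis, Hdac4-shRNA against scramble, bars for the 95% interval) of tested imprinted genes, 1 row per cluster, with squares for the 7 genes of the set and circles for other genes of the cluster, coloured by the parental copy known to be read. The 3 genes of the Peg3 cluster lie between -3.41 and -2.52, whereas the H19-Igf2/Kcnq1 cluster spans -2.88 to 2.93.

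Over a wider list of 65 other imprinted genes, those of the clusters above included, 36 were tested. Of these, 17 rose, 12 fell and 7 did not pass, that is 80.6% called against 75.1% of all genes tested. Their median log2 fold change was 0.11, against 0.01 over all genes, and 0.50 against 0.46 with sign left aside. Among genes imprinted in many tissues, 10 of 16 rose and 4 fell. Among those imprinted in few tissues, 7 of 20 rose and 8 fell. By parental copy, 8 of 13 tested genes of the paternal copy rose and 4 fell, and 9 of 23 of the maternal copy rose and 8 fell. Of all genes tested, 38% rose and 37.1% fell. Directions were thus mixed for both copies, as they were within the set of 10 and over all genes.

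Outside the clusters of the set, Sfmbt2, a Polycomb-related gene of the paternal copy, rose most, with 49, 43 and 49 counts in scramble and 800, 688 and 649 in Hdac4-shRNA libraries (log2 fold change 3.85, SE 0.125, adjusted p = 5.00e-16). Igf2r, the receptor that takes up IGF2 for breakdown and is read from the maternal copy, was counted 595 to 619 times in scramble and 6165 to 6667 times in Hdac4-shRNA libraries (log2 fold change 3.35, SE 0.0491, adjusted p = 2.01e-21). Peg13 rose by 1.38 on the log2 scale (SE 0.0695). Of genes imprinted in few tissues, Dcn, which encodes the proteoglycan decorin, rose (3.16, SE 0.0641), and Gatm (-2.40, SE 0.0542), Gnas (-0.45, SE 0.0844) and Inpp5f (-0.42, SE 0.0546) fell.

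Factors that keep or erase imprinting marks were given as a further list of 15 genes, of which 14 were tested, 7 rose, 6 fell and Tet2 did not pass (92.9% called against 75.1% of all genes). With sign left aside, their median log2 fold change was 0.48, near the 0.46 over all genes. Lowest were Uhrf1 (log2 fold change -0.61, SE 0.0395), Smchd1 (-0.59, SE 0.0471) and Dnmt1 (-0.54, SE 0.0381), which maintain methylation or silencing. Highest among well-counted genes were Tet1, a methylcytosine oxidase (1.03, SE 0.126), and the de novo methyltransferases Dnmt3a (0.93, SE 0.069) and Dnmt3b (0.42, SE 0.15). Trim28 (-0.52, SE 0.0424), Ctcf (-0.44, SE 0.0479) and Zfp57 (-0.32, SE 0.113), named after their values were seen, also fell. Zfp445 (0.22, SE 0.0544), Tet3 (0.22, SE 0.0608) and Setdb1 (0.14, SE 0.0461), named afterwards too, rose. Dnmt3l, likewise named afterwards, had 3, 0 and 3 counts in scramble and 56, 78 and 61 in Hdac4-shRNA libraries.

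Of 12 genes whose proteins the set is known to act on, 4 rose, 7 fell and Siah1a did not pass (91.7% called against 75.1% of all genes). Most changes were small: with sign left aside, the median log2 fold change was 0.34, against 0.46 over all genes. The insulin receptor substrates, which relay the signal that GRB10 restrains, fell: Irs1 was counted 3953, 3623 and 3516 times in scramble and 991, 972 and 865 times in Hdac4-shRNA libraries (log2 fold change -2.04, SE 0.0528, adjusted p = 1.29e-17), with 30.9% of its exon bases shared with Gm9747, and Irs2 had a log2 fold change of -0.76 (SE 0.0825). Of the receptor genes, Igf1r rose by 0.38 on the log2 scale (SE 0.0541) and Insr, named after its value was seen, changed by -0.19 (SE 0.0514, adjusted p = 0.00262). Notch2, a receptor of the pathway that DLK1 is held to modulate, rose by 0.68 (SE 0.0418) and Traf2 by 0.34 (SE 0.0606). E2f1, the partner of necdin, had a log2 fold change of -0.40 (SE 0.068). Dlk1 itself had no count, and Ndn, the gene of necdin, had at most 5 in a library. A link of the set to these partners was not tested.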

How the data were processed

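RNA was poly-A selected and made into libraries with a kit that does not mark strand. Per the labels, the submitters' processing notes name FastQC, STAR 2.7.3a, HTSeq 0.12.4 and mm10, and the annotation is not given in the sources used here. The authors deposited, for each library, raw counts of reads per Ensembl gene, without normalization, followed by summary lines for other reads, which were left out of library sizes. Of 53801 identifiers, 53706 were found in GENCODE M21 (GRCm38, the build called mm10), which gave symbols, positions and exon overlaps. The test across genes was that of edgeR 4.0.16 (R 4.3.3; TMM, filterByExpr, quasi-likelihood F test, Benjamini-Hochberg adjustment over 14531 genes), and all adjusted p-values are from this fit unless another is named. Genes with an adjusted p below 0.05 and a log2 fold change beyond 0.05 were called. The confidence level of intervals is 95%. CPM were scaled by TMM factors. The biological coefficient of variation was 4.79%. Chi-square per degree of freedom between libraries of a group was 3.23 to 8.36, so no library was a repeat of another.

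The genes and lists were chosen with earlier results of these data known. Named genes are Hdac4, the 10 genes, the other genes of their clusters, the nearest genes in pattern, and the 3 highest and 3 lowest called genes with at least 100 counts on average in each further list. The edgeR fit was tested on simulated data for this comparison over 53801 genes. Of 200 planted changes, 136 passed the filter, of which 129 were recovered, and 6 of 135 calls were false. Few genes changed in this simulation, whereas 75.1% of the genes tested were called in the data. The share of false calls and the normalization were thus not tested for changes this broad. Alternatives were other normalizations, filters and fold thresholds, DESeq2 1.42.0, limma-voom (limma 3.58.1), a replicate block, and leaving out each library in turn. Figures were drawn with matplotlib 3.10.9.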

Additional observations from a re-analysis of the deposited data

Results flagged for a closer look

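Reads outside annotated genes, which no comparison above used, made up a larger share of uniquely aligned reads in Hdac4-shRNA libraries, 4.99% ± 0.255 (SD, n = 3), than in scramble libraries, 3.44% ± 0.131 (SD, n = 3). This was picked out because the signal lies above that of the scramble libraries in data outside the gene counts. The groups did not overlap, at 4.83% to 5.29% against 3.32% to 3.58%. Its part in the changes of the imprinted genes was not tested. Groups of 3 libraries are too small for a search for single outlying libraries.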

How the results depend on the processing

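The direction of all 7 tested genes held under 14 alternatives in normalization, filter, test, design and set of libraries, and so did the calls of H19, Peg3, Plagl1, Grb10, Mest and Nnat. Peg10 was lost with upper quartile normalization (log2 fold change -0.18, adjusted p = 0.0704). Leaving out each library in turn gave log2 fold changes of -2.91 to -2.84 for H19, -3.14 to -3.08 for Peg3, 3.54 to 3.79 for Plagl1, 3.15 to 3.36 for Grb10, 1.73 to 1.92 for Mest, 0.85 to 1.14 for Nnat and -0.32 to -0.24 for Peg10. Fold thresholds moved counts by construction. At log2 fold changes of 0.5 and 1, 3579 and 2397 of all genes rose and 2879 and 1543 fell, 9 and 7 other imprinted genes rose, 3 and 2 genes of imprint maintenance rose, and 1 and 0 partner genes rose, while 2 and 1 fell. At a threshold of 1, 7 other imprinted genes and 0 maintenance genes fell. The log2 ratio of H19 to Peg3 turned from positive to -0.28 in scramble and -0.052 in Hdac4-shRNA libraries without division by length. With a block for replicate number, 5523 genes rose and 5441 fell, and Peg10 had a log2 fold change of -0.27 (adjusted p = 0.0109). The block changed no call of the 7 genes. Same-numbered libraries shared no deviation from their group means (correlations from -0.0111 to 0.027 across genes), and the labels do not pair them. Depth limits Dlk1, Meg3 and Ndn, for which no fold is given.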
